A study of Homo sapiens with 18 samples.

Results

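The APOBEC3 genes encode cytidine deaminases, and 6 of them (APOBEC3B, C, D, F, G and H) were followed here as 6 of the 60668 genes in the count table. They were picked by gene name, with earlier results of these data known, so their own changes are given as a description and without p-values. The cells were IMR90, a wild type human lung fibroblast strain, either made senescent by ionizing radiation (IR) or proliferating. Each state received RG7388 or HDM201, which block MDM2 and so stabilise p53, or the solvent DMSO. This gave the groups IR_RG7388, IR_HDM201, IR_DMSO, Prolif_RG7388, Prolif_HDM201 and Prolif_DMSO, with 3 poly(A) RNA-seq libraries in each. In irradiated cells treatment began on day 4 after IR and the cells were collected on day 11, after 7 days of compound. For the proliferating cells the labels give no treatment time. The compounds were given at different doses, so their values are set side by side and not compared with each other. All cells came from a single strain, and the labels do not say whether replicates were separate irradiations, so the spread between replicates may be partly technical.

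APOBEC3 enzymes turn cytosine into uracil in single-stranded DNA and thereby restrict retroviruses and retrotransposons. APOBEC3F, G, D and H are known for blocking HIV that lacks its Vif protein, several family members are induced by interferon, and APOBEC3B is a nuclear enzyme that is high in dividing cells and has been tied to mutations in cancer genomes. Each catalytic domain holds a zinc ion through a histidine and a pair of cysteines, next to a catalytic glutamate. The members lie side by side on the plus strand of chromosome 22 (hg38, GENCODE release 44). APOBEC3B (ENSG00000179750.16) spans 38982347 to 38992804, APOBEC3C (ENSG00000244509.4) 39014257 to 39020352 and APOBEC3D (ENSG00000243811.10) 39021113 to 39033277. APOBEC3F (ENSG00000128394.17) spans 39040604 to 39055972, APOBEC3G (ENSG00000239713.9) 39077067 to 39087743 and APOBEC3H (ENSG00000100298.15) 39097224 to 39104067.

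The zinc-binding stretch of the coding sequence is shown for 4 domains, because the likeness of these copies limits how well reads can be assigned to a member. Capitals mark the codons of the histidine, the glutamate and both cysteines, and each stretch lies in 1 coding exon.
APOBEC3B, first domain (exon 3, chr22:38985833-38985937): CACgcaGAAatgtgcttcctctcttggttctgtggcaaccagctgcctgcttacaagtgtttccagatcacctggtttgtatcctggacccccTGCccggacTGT
APOBEC3C, its 1 domain (exon 3, chr22:39017787-39017891): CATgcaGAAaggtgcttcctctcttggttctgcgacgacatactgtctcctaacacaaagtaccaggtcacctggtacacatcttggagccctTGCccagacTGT
APOBEC3F, second domain (exon 6, chr22:39052095-39052199): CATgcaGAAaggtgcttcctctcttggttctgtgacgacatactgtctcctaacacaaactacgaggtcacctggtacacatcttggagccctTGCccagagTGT
APOBEC3H, its 1 domain (exon 3, chr22:39101246-39101350): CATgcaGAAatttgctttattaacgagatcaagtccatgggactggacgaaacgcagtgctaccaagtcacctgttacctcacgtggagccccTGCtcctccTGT

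APOBEC3B, D, F and G hold 2 such stretches each, and APOBEC3C and H hold 1. The first stretch of APOBEC3F was identical to that of APOBEC3B at all 105 bases. The second stretch of APOBEC3D was identical to that of APOBEC3F at all 105 bases, and APOBEC3C matched both at 101 of 105. The APOBEC3H stretch had 59 bases in common with APOBEC3B as shown, 58 with APOBEC3C and 57 with APOBEC3F. Over exonic sequence, 26.9% of the 50-base words of APOBEC3B also occurred in another APOBEC3 gene, against 14.8% for APOBEC3D, 11.4% for APOBEC3F, 5.47% for APOBEC3G, 1.21% for APOBEC3C and 0% for APOBEC3H. APOBEC3B, D and F thus carry the most sequence that reads of that length cannot tell apart, and their counts are uncertain to that extent. APOBEC3B also overlaps the opposite-strand gene APOBEC3B-AS1 over 244 exonic bases, and the strandedness of the counting is not given in the sources used here. In the RefSeq promoter table (hg38) only APOBEC3H had an entry, from 250 bases before to 50 after its start. None of the 6 motifs searched on both strands matched there, among them the interferon-stimulated response element (GAAANNGAAA, found in 3.57% of 35116 promoters).

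Levels are given in CPM, the counts per library set to the same sequencing depth with TMM factors for composition. Errors of levels are SDs over 3 libraries. Each change is a log2 ratio of the first group over the second, with its SE, from an edgeR quasi-likelihood fit over 18151 genes, and a gene was called at an adjusted p under 0.05 over all of them. Libraries held 21609198 to 66647700 counts. Of the 6 members, 4 (APOBEC3B, C, F and G) passed the filter on low counts. A pair of libraries stood apart from their groups, Prolif_HDM201 replicate 3 and IR_DMSO replicate 1. Over genes, the SD of the log2 difference from the other libraries of the group was 0.69 and 0.60 in them, against 0.36 to 0.59 in the other 16. Markers for the cell label were present: 11 fibroblast genes summed to between 17459 and 26465 CPM in the irradiated libraries and to between 39671 and 57873 CPM in the proliferating ones. The 18 leukocyte markers, listed because blood cells carry high APOBEC3 levels, summed to 25.6 to 33.9 CPM in irradiated and 19.0 to 27.3 CPM in proliferating libraries. Of these, PTPRC (CD45) had 15 counts over the IR_DMSO libraries and 15 over the Prolif_DMSO libraries, CD3D had 0 in both, and CD14 had 116 against 14. The named markers held only a small part of these sums. Of the 18, 5 passed the filter on low counts. In IR_DMSO against Prolif_DMSO 2 of them were called higher and 1 lower, where 51.6% of all genes were called. The 6 endothelial markers summed to 113 to 138 CPM against 79.9 to 90.7 CPM. The 7 epithelial markers ranged from 153 to 169 CPM in IR_DMSO and from 266 to 422 CPM elsewhere, and the part of any of these in the results was not tested.

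**Figure D1:**
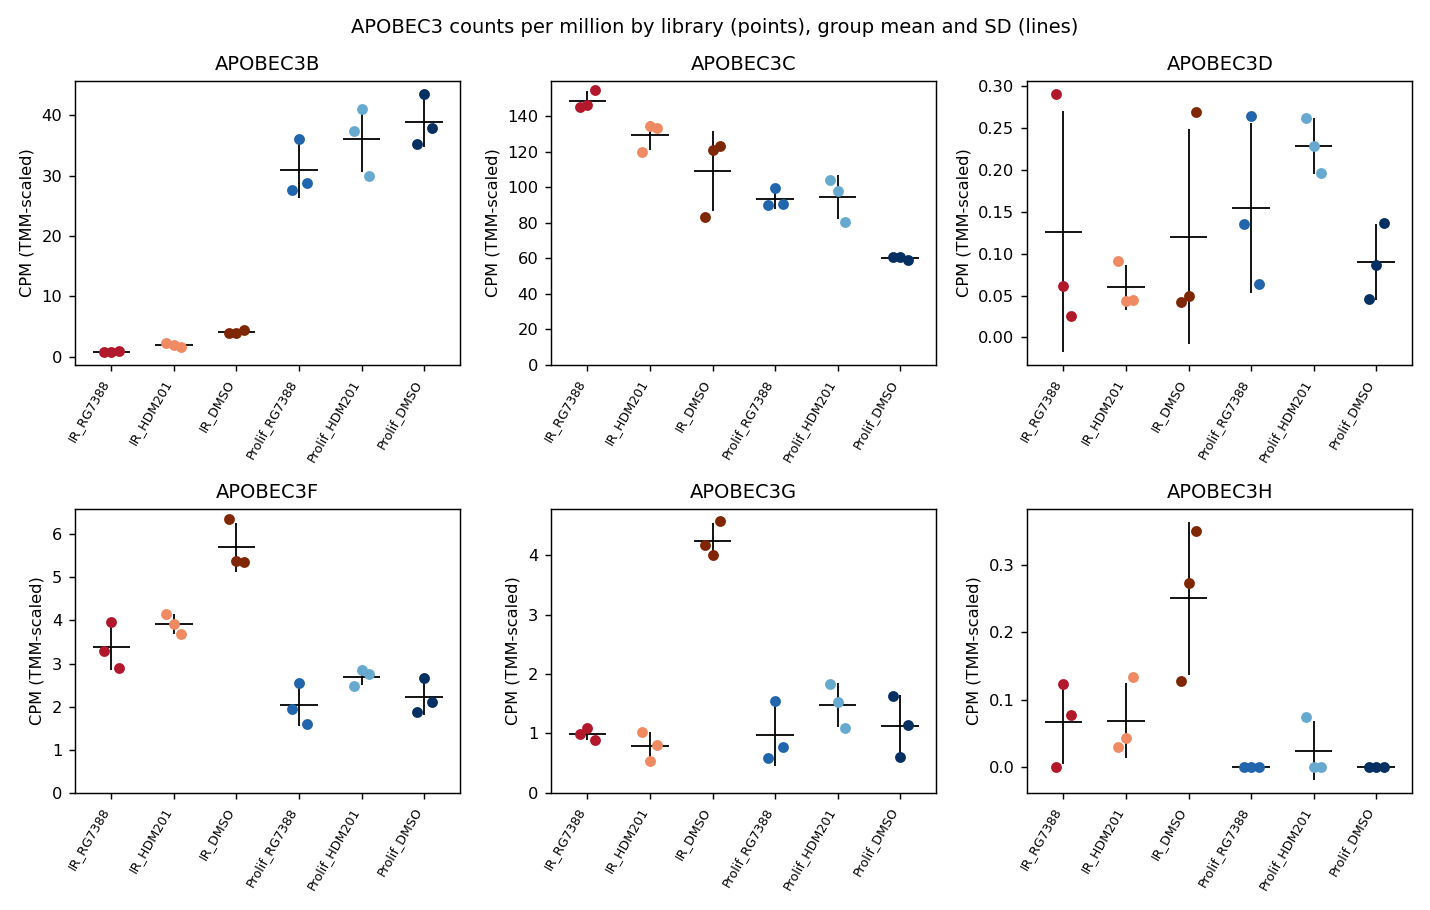
TMM-scaled CPM (vertical axis, linear, own scale per panel) of the 6 APOBEC3 genes in each of the 18 libraries (points), with group means (horizontal lines) and SD (vertical lines). APOBEC3B is low in all irradiated groups and lowest in IR_RG7388, APOBEC3C is highest there, and APOBEC3F, G and H peak in IR_DMSO.

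The first comparison asked how irradiation-induced senescence changed the family in cells given DMSO, and it went in opposite directions among its members. APOBEC3B was 9.53-fold lower in IR_DMSO than in Prolif_DMSO, while APOBEC3C, F and G were 1.81-, 2.62- and 3.57-fold higher. All 4 tested members were called, 3 higher and 1 lower, against 51.6% of all genes tested. The median over the 4 was 1.12 on the log2 scale, against 0.05 over all genes.

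APOBEC3B had 3.89, 3.90 and 4.44 CPM in the IR_DMSO libraries and 35.3, 43.5 and 37.9 CPM in the Prolif_DMSO libraries. The groups did not overlap, and the fitted change was -3.25 ± 0.15. In bulk RNA such a difference cannot be told apart between fewer cells with the transcript and less transcript per cell. APOBEC3C, a single-domain enzyme made in many tissues, had 83.1, 121 and 123 CPM in IR_DMSO and 60.9, 60.7 and 59.3 CPM in Prolif_DMSO. All 3 irradiated libraries were above all proliferating ones, and the change was 0.86 ± 0.12, or 1.00 without IR_DMSO replicate 1, the lowest of the irradiated 3.

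APOBEC3F had 6.35, 5.39 and 5.36 CPM in IR_DMSO against 1.88, 2.67 and 2.10 CPM in Prolif_DMSO. The groups were apart, with a change of 1.39 ± 0.19. APOBEC3G, the best known HIV restriction factor of the family, had 4.17, 4.00 and 4.58 CPM in IR_DMSO against 1.64, 0.603 and 1.15 CPM in Prolif_DMSO. Here too the groups did not overlap, and the change was 1.84 ± 0.31.

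APOBEC3H and D were below the filter. APOBEC3H had 6, 11 and 13 counts in the IR_DMSO libraries and 0 in every Prolif_DMSO library. Its pooled level of 0.241 CPM in IR_DMSO was at least 10.01-fold higher than 0.0241 CPM, the level that 3 counts summed over Prolif_DMSO would give. Fitted without the filter on low counts, this APOBEC3H change was called, at 6.25, a value that rests on 0 counts in Prolif_DMSO. APOBEC3D had 2, 2 and 10 counts in IR_DMSO against 3, 2 and 5 in Prolif_DMSO, and the groups overlapped. Of the 2529 exonic bases of APOBEC3D, 2104 (83.2%) also belong to a readthrough gene on the same strand, listed as AL022318.4 (ENSG00000284554.2), which had 0 counts in all 18 libraries. How reads in such an overlap were counted is not given, and its part in the low APOBEC3D counts was not tested.

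The next comparisons asked what MDM2 inhibition did to irradiated cells. APOBEC3B and G were lower under either compound and APOBEC3F was lower to a smaller extent, while APOBEC3C was higher under RG7388. With RG7388 all 4 tested members were called, 1 higher and 3 lower (22.8% of all genes were called), and with HDM201 3 were called, all lower (21.3% of all genes). The median over the 4 was -1.44 with RG7388, against -0.03 over all genes, and -0.79 with HDM201, against -0.02. Both comparisons share the IR_DMSO libraries.

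APOBEC3B had 0.751, 0.835 and 0.856 CPM in IR_RG7388, 2.25, 1.98 and 1.51 CPM in IR_HDM201, and 3.89, 3.90 and 4.44 CPM in IR_DMSO. Both compound groups lay below IR_DMSO, by -2.33 ± 0.18 with RG7388 and -1.05 ± 0.17 with HDM201. Against Prolif_DMSO 3 of the 4 tested members were called under each compound, 2 higher and 1 lower, where 49.2% of all genes were called with RG7388 and 50.2% with HDM201. APOBEC3B was 48.0-fold lower in IR_RG7388 (-5.59 ± 0.18) and 19.7-fold lower in IR_HDM201 (-4.30 ± 0.17), which was farther from the proliferating level than IR_DMSO was.

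APOBEC3G had 0.980, 1.08 and 0.882 CPM in IR_RG7388, 1.02, 0.527 and 0.800 CPM in IR_HDM201, and 4.17, 4.00 and 4.58 CPM in IR_DMSO. Every compound library was below every IR_DMSO library, with changes of -2.11 ± 0.31 for RG7388 and -2.37 ± 0.33 for HDM201. Against Prolif_DMSO the values were -0.28 ± 0.33 and -0.53 ± 0.34, not called, and those groups overlapped, unlike those of APOBEC3B.

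APOBEC3F had 3.29, 3.96 and 2.90 CPM in IR_RG7388, 4.15, 3.91 and 3.69 CPM in IR_HDM201, and 6.35, 5.39 and 5.36 CPM in IR_DMSO. Both compound groups lay below IR_DMSO without overlap, by -0.76 ± 0.18 and -0.54 ± 0.18, and above Prolif_DMSO, by 0.63 ± 0.19 and 0.85 ± 0.19. The HDM201 change against IR_DMSO was no longer called when any 1 of the 6 libraries was left out, with values from -0.58 to -0.45. On the log2(FPKM + 1) scale none of these 4 APOBEC3F changes was called by limma, at -0.41 and -0.48 against IR_DMSO and 0.15 and 0.08 against Prolif_DMSO. Without Prolif_DMSO replicate 1 or IR_RG7388 replicate 2, APOBEC3F in IR_RG7388 against Prolif_DMSO was not called either (0.51 and 0.49). APOBEC3H had 0, 4 and 3 counts in IR_RG7388 and 2, 1 and 3 in IR_HDM201, against 6, 11 and 13 in IR_DMSO, and scaled to library size the RG7388 libraries lay below IR_DMSO while the HDM201 libraries overlapped it. That split rests on a few counts. Fitted without the filter on low counts, the APOBEC3H changes were -1.90 with RG7388 and -1.88 with HDM201, neither called. APOBEC3D had 19, 2 and 1 counts in IR_RG7388 and 6, 1 and 1 in IR_HDM201, against 2, 2 and 10 in IR_DMSO, and all these groups overlapped.

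APOBEC3C had 145, 146 and 155 CPM in IR_RG7388, 120.0, 135 and 133 CPM in IR_HDM201, and 83.1, 121 and 123 CPM in IR_DMSO. The RG7388 libraries were above all IR_DMSO libraries (0.45 ± 0.12), and the HDM201 libraries overlapped them (0.24 ± 0.12, not called). Both values lean on the low replicate 1 of IR_DMSO: without it they were 0.29, no longer called, and 0.09. The RG7388 call was also lost when libraries were scaled by their totals alone (0.26). In limma on log2(FPKM + 1) and on log2(FPKM + 0.1) it was lost too (0.29 in each). Against Prolif_DMSO APOBEC3C was 1.30 ± 0.12 higher in IR_RG7388 and 1.10 ± 0.12 higher in IR_HDM201.

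In proliferating cells APOBEC3C was higher under either compound and was the 1 member called with each. Of all genes, 1.54% were called with RG7388 and 0.700% with HDM201. APOBEC3C had 90.2, 99.5 and 90.4 CPM in Prolif_RG7388, 104, 98.2 and 80.6 CPM in Prolif_HDM201, and 60.9, 60.7 and 59.3 CPM in Prolif_DMSO. Every compound library exceeded every DMSO library, by 0.63 ± 0.12 with RG7388 and 0.65 ± 0.12 with HDM201. Leaving out any 1 of Prolif_DMSO replicates 1 and 3 or Prolif_RG7388 replicate 2 ended the first call at nearly the same value (0.59 to 0.64), and leaving out any Prolif_DMSO replicate or Prolif_HDM201 replicate 1 or 2 ended the second (0.57 to 0.65).

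APOBEC3B had 27.7, 36.1 and 28.8 CPM in Prolif_RG7388, 37.3, 41.0 and 30.002 CPM in Prolif_HDM201, and 35.3, 43.5 and 37.9 CPM in Prolif_DMSO. The groups overlapped, and the changes of -0.33 ± 0.14 and -0.11 ± 0.14 were not called. APOBEC3F (-0.12 ± 0.20 and 0.31 ± 0.19) and APOBEC3G (-0.31 ± 0.35 and 0.30 ± 0.33) were not called either, and each overlapped Prolif_DMSO. APOBEC3H had 0 counts in all Prolif_RG7388 libraries and 2 counts in a single Prolif_HDM201 library. APOBEC3D had 2 to 6 counts in Prolif_RG7388 libraries and 6 to 9 in Prolif_HDM201 libraries, against 2 to 5 in Prolif_DMSO libraries. Scaled to library size, Prolif_HDM201 lay above Prolif_DMSO without overlap and Prolif_RG7388 overlapped it. Fitted without the filter on low counts, neither APOBEC3D change was called (1.34 with HDM201 and 0.79 with RG7388).

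**Figure D2:**
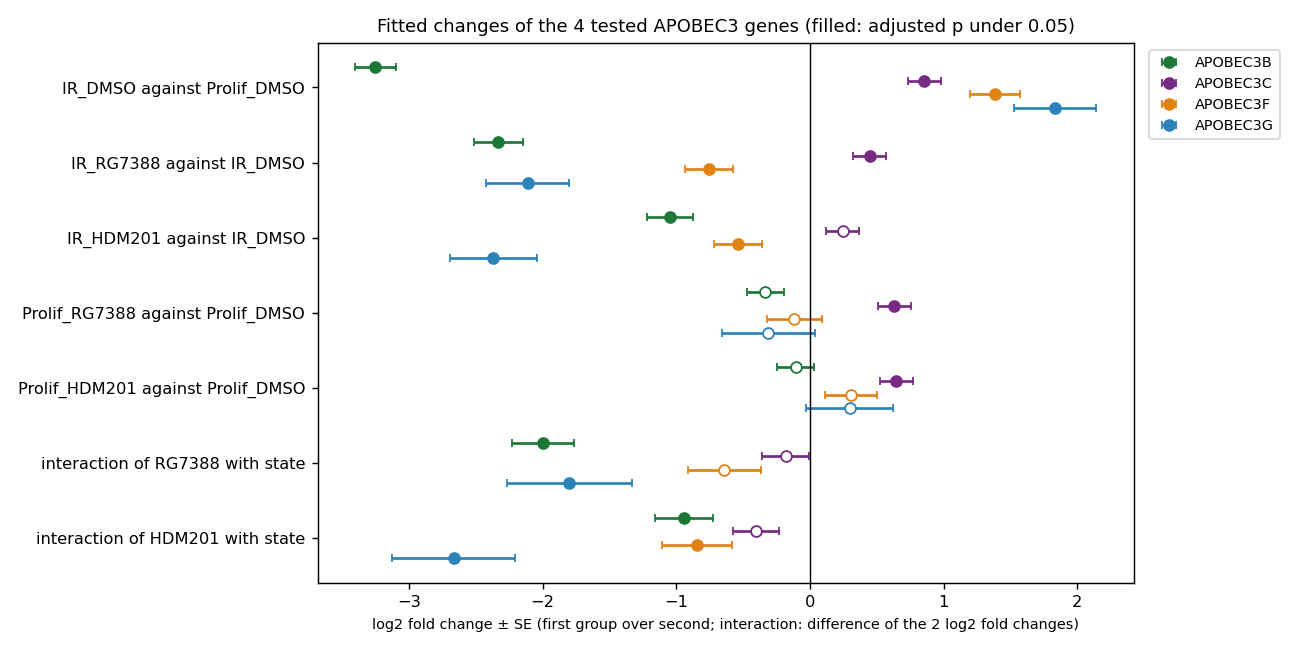
Log2 fold change ± SE (horizontal axis) of APOBEC3B, C, F and G in 7 comparisons (rows), filled where called at an adjusted p under 0.05 over all 18151 genes. The compound effects on APOBEC3B and G lie between -2.37 and -1.05 in irradiated cells and between -0.33 and 0.30 in proliferating cells, and APOBEC3C is the member that is positive in the first 5 rows.

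Whether a compound effect differed between irradiated and proliferating cells was read from the interaction of compound and state, the difference of both log2 fold changes. The time under compound is not given for proliferating cells, so a difference in exposure cannot be told apart from one of state. For RG7388 it was -1.9997 ± 0.23 for APOBEC3B and -1.80 ± 0.47 for APOBEC3G, both called, where 7.47% of all genes were called. It was -0.64 ± 0.27 for APOBEC3F and -0.18 ± 0.17 for APOBEC3C, not called. For HDM201 it was -0.94 ± 0.22 for APOBEC3B, -0.85 ± 0.26 for APOBEC3F and -2.67 ± 0.46 for APOBEC3G, called, where 8.64% of all genes were called, and -0.40 ± 0.17 for APOBEC3C, not called. Without both libraries that stood apart, the APOBEC3C interaction was called for each compound, at -0.34 with RG7388 and -0.67 with HDM201, and that with HDM201 was also called without either alone (-0.56 without IR_DMSO replicate 1 and -0.51 without Prolif_HDM201 replicate 3) and, with all libraries, when they were scaled by their totals (-0.53). The APOBEC3F value for HDM201 lost its call in 10 of its 12 leave-one-out fits, at -0.89 to -0.72, and that of APOBEC3G for RG7388 lost it without Prolif_RG7388 replicate 2, at -1.32. The APOBEC3F value was also not called with DESeq2 size factors (-0.84), without the filter on low counts (-0.82) or on its groups only (-0.85). Nor was it without both libraries that stood apart (-0.75), or in limma on log2(FPKM + 1) (-0.59) and log2(FPKM + 0.1) (-0.70).

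Levels of different members can be compared only per length, and for this the deposited FPKM (fragments per kilobase of transcript, scaled to sequencing depth) were used. APOBEC3C was the most abundant member in 5 groups, and in Prolif_DMSO APOBEC3B was first. APOBEC3C made up 90.4 ± 1.89% of the summed APOBEC3 FPKM in IR_RG7388, 88.3 ± 0.833% in IR_HDM201, 76.5 ± 4.99% in IR_DMSO, 54.6 ± 3.29% in Prolif_RG7388, 52.7 ± 1.51% in Prolif_HDM201 and 39.5 ± 1.38% in Prolif_DMSO. The share of APOBEC3B was 0.947 ± 0.0314% in IR_RG7388, 2.66 ± 0.543% in IR_HDM201, 5.87 ± 1.28% in IR_DMSO, 36.7 ± 1.38% in Prolif_RG7388, 38.5 ± 1.31% in Prolif_HDM201 and 50.9 ± 1.88% in Prolif_DMSO. The size of the pool varied less, at 62.7 ± 1.48 FPKM in IR_RG7388, 57.2 ± 2.56 in IR_HDM201, 61.0 ± 9.09 in IR_DMSO, 58.2 ± 5.77 in Prolif_RG7388, 63.0 ± 5.60 in Prolif_HDM201 and 53.3 ± 1.10 in Prolif_DMSO. The FPKM were used as deposited, without the TMM factors for composition, so these sizes are only roughly comparable between groups.

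**Figure D3:**
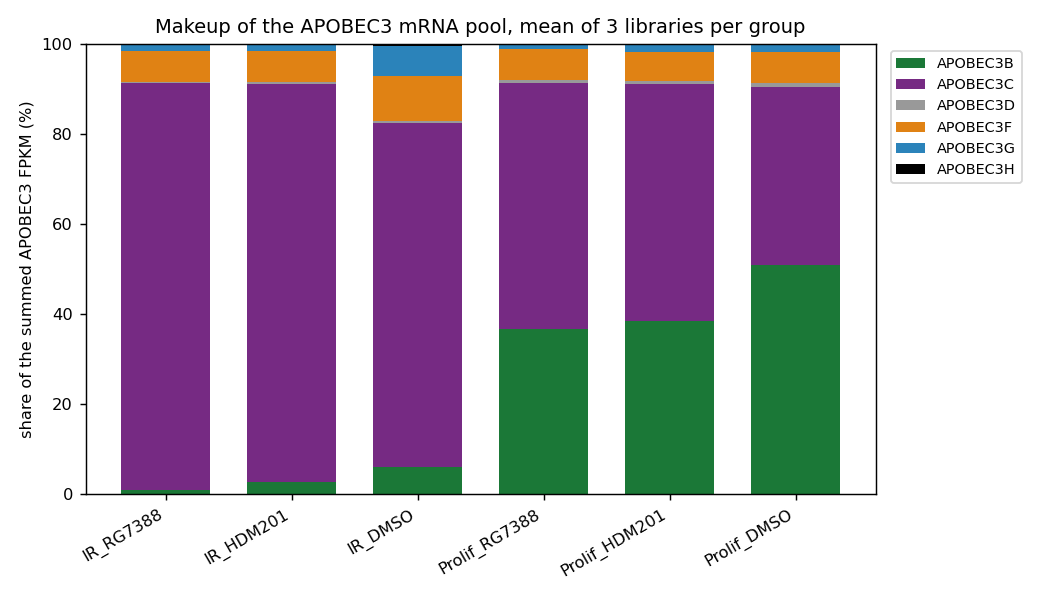
Share (%) of each of the 6 members in their summed FPKM, as stacked bars of the mean over 3 libraries per group. APOBEC3B fills 5.87% of the pool in IR_DMSO and 50.9% in Prolif_DMSO, and APOBEC3C fills 76.5% in IR_DMSO and 39.5% in Prolif_DMSO.

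Within a group, the order of the lower members was less firm. In IR_DMSO APOBEC3F (5.96 ± 0.632 FPKM), APOBEC3G (3.92 ± 0.201 FPKM) and APOBEC3B (3.51 ± 0.292 FPKM) followed APOBEC3C, and the mean ± SD ranges of APOBEC3G and B overlapped. APOBEC3H (0.348 ± 0.189 FPKM) and APOBEC3D (0.291 ± 0.141 FPKM) did not differ beyond their spread. From the counts divided by exon length, Prolif_DMSO had APOBEC3C first (22.8 ± 0.344 CPM per kb) and APOBEC3B next (20.5 ± 2.23 CPM per kb), the reverse of the FPKM order (21.1 ± 0.313 and 27.1 ± 1.57 FPKM). In IR_DMSO the counts per kb put APOBEC3B second (2.15 ± 0.167 CPM per kb), against its FPKM order. APOBEC3F (1.09 ± 0.108 CPM per kb) and APOBEC3G (0.790 ± 0.0554 CPM per kb) came after it. FPKM was 5.35 to 10.3 times the CPM per kb for APOBEC3F and 4.02 to 5.03 times for APOBEC3G, against 0.897 to 1.14 times for APOBEC3C. In FPKM APOBEC3F also differed less between states, with 5.96 ± 0.632 FPKM in IR_DMSO and 3.71 ± 0.0849 FPKM in Prolif_DMSO, and a change of 0.56 on the log2(FPKM + 1) scale in limma.

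Genes whose pattern over all 18 libraries was most like a member's were named by the highest Pearson r of log2 CPM among 13201 genes. For APOBEC3B these were RRM2, a subunit of ribonucleotide reductase (r = 0.998), CDC20, an activator of the anaphase-promoting complex (0.997), and BIRC5, the mitotic protein survivin (0.996). Within the 9 irradiated and the 9 proliferating libraries RRM2 gave 0.981 and 0.949, CDC20 0.988 and 0.912, and BIRC5 0.967 and 0.920. For APOBEC3C they were DKK3, SHC1 and GYS1 (0.976, 0.970 and 0.968), for APOBEC3F ADAMTS13, LAP3 and GNG11 (0.935, 0.934 and 0.932), and for APOBEC3G CPT1A, RPS6KA2 and BMP2 (0.917, 0.900 and 0.893). CPT1A, the mitochondrial carnitine transferase, reached 0.988 with APOBEC3G in the irradiated libraries and 0.565 in the proliferating ones. The points share 2 states and their libraries' depth, so these r are descriptions.

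Among themselves the members did not move as a unit. Over 18 libraries APOBEC3B correlated with APOBEC3C at r = -0.82 and with APOBEC3F at -0.64, and with APOBEC3G at -0.01. Within the 9 irradiated libraries, however, APOBEC3B, F and G went together (0.89 for B with F, 0.76 for B with G and 0.85 for F with G), and APOBEC3C went against them (-0.75, -0.86 and -0.65). These libraries fall into compound groups, so such r hold the compound shifts given above. Within the proliferating libraries APOBEC3C was at -0.28 with B, 0.17 with F and 0.25 with G. There B with F gave 0.58, B with G 0.35 and F with G 0.29.

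Genes beside the cluster were counted too. Of 8 neighbours, 4 rose and 3 fell in IR_DMSO against Prolif_DMSO (median 0.25, against 0.05 over all genes, of which 51.6% were called). The 3 with the smallest adjusted p among those that rose were SYNGR1 (1.51 ± 0.11), NPTXR (1.56 ± 0.13) and CBX7, a Polycomb protein (1.58 ± 0.19), and SUN2, of the nuclear envelope, fell (-1.84 ± 0.11). In irradiated cells RG7388 changed 1 of the 8, the synaptic vesicle gene SYNGR1 (0.33 ± 0.10), and with HDM201 SYNGR1 was nearest to a call (0.29 ± 0.10, adjusted p = 0.0507 in edgeR's quasi-likelihood test with Benjamini-Hochberg adjustment). Scaled by library totals, 1 neighbour was called with each compound, and it was lower.

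**Figure D4:**
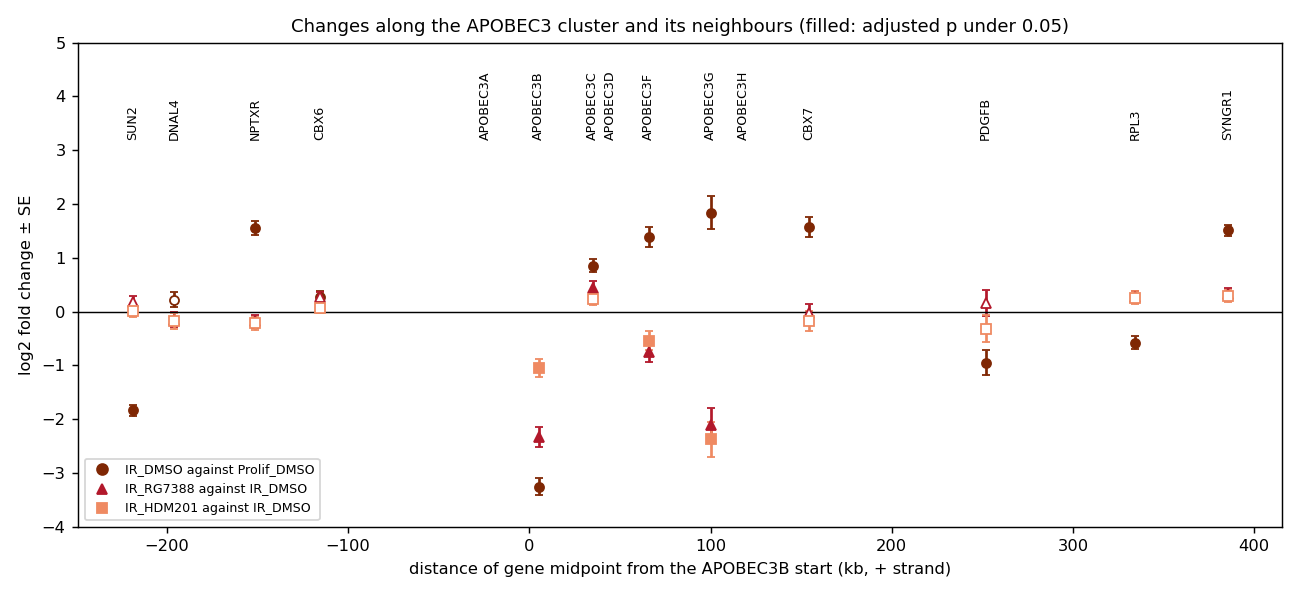
Log2 fold change ± SE (vertical axis) of tested genes by the distance of their midpoint from the APOBEC3B start in kb (horizontal axis), for IR_DMSO against Prolif_DMSO (circles) and for RG7388 (triangles) and HDM201 (squares) against IR_DMSO, filled where called. The compound changes of APOBEC3B and G stand well below 0, and those of the 8 neighbours lie between -0.32 and 0.33.

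Gene groups around the family were counted from lists chosen with earlier results of these data known. Their counts are a description, given beside those of all genes. In IR_DMSO against Prolif_DMSO 26.3% of all genes were called higher and 25.3% lower. In irradiated cells 10.9% were higher and 11.9% lower with RG7388, and 9.96% were higher and 11.3% lower with HDM201. Of 26 other viral restriction factors, 22 were called higher and 1 lower in IR_DMSO against Prolif_DMSO (median 2.36, against 0.05 over all genes). Among them were the ubiquitin ligase TRIM22 (3.11 ± 0.10) and the interferon-induced IFIT2 (5.74 ± 0.25), while SLFN11 fell (-1.52 ± 0.11). In irradiated cells 18 were called lower and 2 higher with RG7388 (median -2.63), and 19 lower and 2 higher with HDM201 (median -2.59). With RG7388 and HDM201 IFIT2 was at -3.83 ± 0.22 and -3.68 ± 0.22, and OAS3, an oligoadenylate synthetase that senses double-stranded RNA, at -3.99 ± 0.21 and -3.58 ± 0.21. The pair called higher under both were SERINC3 (0.37 ± 0.10 under each) and SERINC5 (0.60 ± 0.14 and 0.44 ± 0.14), of which 1 call under each compound was lost when libraries were scaled by their totals. TRIM22 was not lower under either compound in irradiated cells. It had 93.2 ± 2.55 CPM in IR_RG7388 and 89.2 ± 3.28 CPM in IR_HDM201, against 87.0 ± 4.88 CPM in IR_DMSO. In proliferating cells TRIM22 was the 1 gene called with each compound (1.43 ± 0.10 and 1.22 ± 0.10).

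Of 10 interferon signalling genes tested, 6 were called higher and 2 lower in IR_DMSO against Prolif_DMSO (median 0.59, against 0.05 over all genes), with IRF7, a factor that amplifies interferon, at 1.94 ± 0.19 and TYK2, a receptor kinase, at -0.55 ± 0.10. With RG7388 5 were called lower and 1 higher (median -0.43, against -0.03 over all genes), and with HDM201 5 lower and 0 higher (median -0.58, against -0.02). Scaled by library totals, 6 were lower and 0 higher with RG7388 and 7 lower and 0 higher with HDM201. IRF7 was at -2.23 ± 0.19 with RG7388 and -1.94 ± 0.19 with HDM201. Of the 5 NF-kB subunits, 1 rose (NFKB2, 0.52 ± 0.10) and 1 fell (RELA, -0.30 ± 0.13) with irradiation, while 3 fell with RG7388 and 4 with HDM201, with NFKB1 at -0.86 ± 0.10 and -0.96 ± 0.11. Scaled by library totals, 3 subunits were higher and 0 lower with irradiation, so the call of RELA was lost.

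The DREAM, E2F and B-MYB network switches cell-cycle promoters, and APOBEC3B is known as one of its targets. In IR_DMSO against Prolif_DMSO 10 of 14 were called lower and 1 higher (CDKN1A, the p21 gene, 2.98 ± 0.11), with MYBL2 at -4.15 ± 0.13 and FOXM1 at -3.61 ± 0.18. With RG7388 in irradiated cells 5 were called lower and 0 higher, FOXM1 at -1.58 ± 0.18 and MYBL2 at -1.12 ± 0.13. With HDM201 3 were lower and 1 higher, FOXM1 at -1.12 ± 0.18 and MYBL2 at -0.35 ± 0.12, and CDKN1A was not among the calls in irradiated cells with either compound. Scaled by library totals, 7 were lower and 3 higher with irradiation, and with HDM201 in irradiated cells 5 were lower and 0 higher.

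Uracil left by the deaminases is removed by base excision repair. Of 18 genes of genomic uracil repair, 11 were called lower and 1 higher in IR_DMSO against Prolif_DMSO (median -0.61), with DNA ligase LIG1 at -1.91 ± 0.12, the flap nuclease FEN1 at -2.06 ± 0.14 and SMUG1, a uracil glycosylase, higher at 0.45 ± 0.14. Scaled by library totals, 10 were lower and 5 higher, and 1 of the called genes changed sign. Genes for glycosylases did not all fall. UNG, a uracil glycosylase, had 19.98 ± 1.49 CPM in IR_DMSO against 17.39 ± 0.23 CPM in Prolif_DMSO. It had 21.89 ± 1.001 CPM in IR_RG7388 and 21.62 ± 1.49 CPM in IR_HDM201. In IR_DMSO against Prolif_DMSO, MBD4 had 35.31 ± 4.43 against 31.03 ± 2.65 CPM. TDG was lower, at 19.52 ± 1.002 against 32.23 ± 3.48 CPM. Uracil excision itself was not tested. With RG7388 in irradiated cells 7 of the 18 genes were lower and 0 higher, led by DUT, which removes dUTP (-0.73 ± 0.13). With HDM201 4 were lower and 1 higher (TDG, 0.46 ± 0.12). With library totals the HDM201 counts were 7 lower and 0 higher, so the call of TDG was lost.

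Of 10 retrotransposon restriction genes tested, 5 were lower and 2 higher in IR_DMSO against Prolif_DMSO, where 51.6% of all genes were called. Among them were RNASEH2A (-2.08 ± 0.21) and the RNA helicase MOV10 (0.35 ± 0.10), and MOV10 fell with RG7388 (-0.61 ± 0.10) and with HDM201 (-0.71 ± 0.10). Scaled by library totals, 3 of the 10 were lower and 4 higher with irradiation, and their median turned to 0.13, against -0.17 with TMM. Of the RNA-editing adenosine deaminases, ADAR was called with RG7388 (-0.65 ± 0.10) and HDM201 (-0.79 ± 0.10) in irradiated cells and ADARB1 with irradiation (-0.80 ± 0.11). Other APOBEC genes were near absent: APOBEC3A, APOBEC1, APOBEC2 and APOBEC4 had at most 11 counts in any library and did not pass the filter.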

How the data were processed

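Poly(A) RNA of 18 IMR90 libraries was sequenced, with groups taken from the sample labels. The deposited counts are raw HTSeq read counts per gene, made by the authors from STAR 2-pass alignments to hg38, and the deposited FPKM came from their run of Cufflinks. Versions, counting mode and gene annotation were not given in the sources. Counts were analysed in R 4.3.3 with edgeR 4.0.16 (filterByExpr, TMM, robust quasi-likelihood fit on all 18 libraries with 12 residual degrees of freedom, Benjamini-Hochberg over 18151 genes, adjusted p under 0.05), and tested on simulated data. Copies of 45 pseudoautosomal genes were left out. FPKM served for levels between members and for limma 3.58.1 alternatives. Blank FPKM cells (600857, of which 68911 had counts) were set to 0. DESeq2 1.42.0 was an alternative. Replicate numbers were not used as pairs in the main fit, because the labels do not say that equal numbers share a culture. Of 45 same-number pairs, 9 had r over 0.1, which cannot decide whether libraries were paired. Named genes were all members, up to 3 genes per list and direction by adjusted p, and 3 similar genes per member. Levels of UNG, MBD4 and TDG were added to show glycosylases of the uracil repair list. Some listed genes are not reported here. The members and lists were chosen with earlier results of these data known. Coordinates and sequences come from GENCODE release 44 (python 3.11.15).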

Additional observations from a re-analysis of the deposited data

Results flagged for a closer look

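A compound's effect differed between irradiated and proliferating cells for some members, read as the difference of both log2 fold changes in the edgeR fit. The time under compound is not given for proliferating cells, so a difference in exposure cannot be told apart from one of state. For RG7388 the difference was -1.9997 for APOBEC3B and -1.80 for APOBEC3G. For HDM201 it was -0.94 for APOBEC3B, -0.85 for APOBEC3F and -2.67 for APOBEC3G. In each case the level under the compound, set against DMSO, was lower in irradiated than in proliferating cells. The members were chosen with results of these data known, so the values are a description. The APOBEC3F call was lost in most fits with a library left out and in several other alternatives, as given above. That of APOBEC3G for RG7388 was lost without Prolif_RG7388 replicate 2.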

How the results depend on the processing

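Of 648 values of the 36 member changes under the alternatives, 636 kept their sign, and the other 12 belonged to changes that were not called. None of the 24 called changes turned, and 59 calls were gained or lost, many of which stand beside their results. Calls moved most in proliferating cells. With RG7388 there, 279 genes were called, against 1081 when fitted on the groups of the comparison only, 557 with DESeq2, and 117, 140 and 155 with limma on log2(FPKM + 1), on log2(FPKM + 0.1) and on genes of at least 1 FPKM, and 94 to 134 with 1 library left out. With HDM201 there, 127 were called, against 21, 304, 61, 79 and 74 in the same order, 43 to 1672 with 1 library left out (1672 without Prolif_HDM201 replicate 3) and 2833 without both libraries that stood apart. The interaction with RG7388 gave 1356, against 2098 on its groups only and 2204 without both libraries. That with HDM201 gave 1568, against 3321 without both libraries and 1127 to 2943 with 1 left out (2943 without Prolif_HDM201 replicate 3). Members called in IR_RG7388 against IR_DMSO numbered 4, and 2 in each of the 3 limma fits. In proliferating cells the 1 member called became 0 to 1 with 1 library left out, for either compound, and 0 for HDM201 on its groups only. The 2 called for the RG7388 interaction became 1 to 2 with 1 library left out. The cause was not tested.

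A fit with the replicate number as a block called 9304 genes and 4 members in IR_DMSO against Prolif_DMSO and changed no member call count in any of the 9 comparisons. Of 18 libraries, 8 correlated best with their own number. Scaling by library totals instead of TMM moved the median of all genes by 0.29 in IR_DMSO against Prolif_DMSO, by -0.19 and -0.15 with RG7388 and HDM201 in irradiated cells, by 0.10 and 0.14 in IR_RG7388 and IR_HDM201 against Prolif_DMSO, and by -0.13 and -0.14 in the interactions. The share of calls that were higher went to 71.5% (51.0% with TMM), 20.2% (48.0%), 22.5% (46.8%), 60.2% (50.2%, IR_HDM201 against Prolif_DMSO), 15.1% (29.4%) and 15.7% (34.4%), and with RG7388 in proliferating cells to 67.5% (77.8%). Member signs did not turn under it. Low counts limit APOBEC3D (1 to 19 per library) and APOBEC3H (0 to 13).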
